A study of Saccharomyces cerevisiae with 2 samples.

Results

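Domain V of the 25S rRNA is the part of the large subunit RNA that forms the peptidyl transferase centre. It was taken as rows 2351 to 2995 of the RDN25-2 feature in the deposited 35S coverage, which gave 645 of the 3396 nucleotides of the 25S rRNA and of the 6858 nucleotides of the 35S pre-rRNA. The limits were set by position and no measured value was used to choose them. Crosslinking and analysis of cDNA (CRAC) had been carried out on exponentially growing yeast of the BY4741 strain irradiated at 254 nm. In CRAC, RNA fragments that were crosslinked to a tagged protein by UV light are trimmed by RNase, purified with the protein and sequenced. One group expressed Pol5 with a C-terminal His-TEV-ProteinA (HTP) tag from its own genomic locus (Pol5-HTP) and the other was wild type (WT). The title of the control library carries the letters HTP, but its genotype label reads wild type, and it was treated as the untagged control. There was 1 library per group, so no value below has an estimate of the spread between cultures and no test between the groups was possible.

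Domain V folds around the ring of nucleotides at which peptide bonds are made, and the polypeptide exit tunnel starts there. Hairpins of the domain carry the P loop and the A loop, which hold the CCA ends of the tRNAs in the P and A sites, and other helices form the stalk to which L1 binds or contact the 5S rRNP at the central protuberance. The domain is rich in 2′-O-methylated nucleotides and pseudouridines that are set by snoRNPs, and it reaches its mature fold late in the assembly of the 60S subunit. Pol5 is an assembly factor of ribosomal subunits. The comparison asks where RNA of the domain was recovered with tagged Pol5 and where it was recovered from untagged cells as well.

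Numbering was checked against 31 nucleotides of known identity in domain V, made up of modified nucleotides and 4 nucleotides of the peptidyl transferase ring. All 31 had the expected base in the deposited sequence. Coverage was given by the authors as hits per 1000000 mapped reads at each nucleotide (normalized hits). A single read was worth 2.16 normalized hits in the WT coverage and 0.570 in that of Pol5-HTP, and all values were whole multiples of these steps. The steps correspond to scaling by totals of 463950 and 1755048 reads. The reads counted per RNA class summed to 1092199 and 1073688, so the coverage was not scaled to the class totals. Which of these is the number of mapped reads could not be told. Had the class totals been used, ratios of Pol5-HTP over WT would be 3.85 times higher throughout. Levels in the libraries are therefore compared as deposited, and the distribution of hits within domain V, which does not depend on the scaling, is given beside them.

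Sequences that the results turn on are given in the DNA letters of the coverage files and numbered from the 5′ end of the 25S rRNA. The first line of sequence is the highest site of both libraries, nucleotides 2519 to 2582, and the second is the site over the peptidyl transferase centre, nucleotides 2847 to 2889. Capitals mark the stretch from the first to the last nucleotide at or above 50% of the WT summit. The third sequence is the highest stretch that was called in Pol5-HTP and not in WT, nucleotides 2432 to 2474, and all of it was above 50% of its summit. In the fourth, nucleotides 2627 to 2647, capitals mark the stretch with fewer than 3 reads in WT. The fifth is the A loop with its surroundings, nucleotides 2913 to 2931, with the 3 modified nucleotides of the loop in capitals.
Site at 2548: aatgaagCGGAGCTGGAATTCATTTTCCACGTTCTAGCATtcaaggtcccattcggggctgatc
Site at 2876: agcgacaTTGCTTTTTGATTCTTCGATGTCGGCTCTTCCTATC
Pol5-HTP stretch at 2463: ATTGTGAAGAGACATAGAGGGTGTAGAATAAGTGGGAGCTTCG
WT gap: catctgTTAAACGATaacgca
A loop: cgttggatTGTtcacccac

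Mean coverage of domain V was 1686 normalized hits for WT against 637 for Pol5-HTP. This is a log2 ratio of -1.39 with 10 normalized hits added to each mean, as in all log2 ratios here. This direction was reversed with the class totals, where the log2 ratio was 0.53. The medians over the 645 nucleotides were 353 normalized hits in both libraries, so the difference of the means came largely from the high stretches. Domain V made up 19.0% of the length of the 25S rRNA and held 23.4% of the WT hits on it, but 9.42% of the Pol5-HTP hits. These shares are free of the scaling. The 25S rRNA before domain V took 56.4% of the WT hits and 82.0% of the Pol5-HTP hits, and a share can only fall where another rises. After domain V, nucleotides 2996 to 3396 took 20.2% and 8.56%. Compared with WT, the log2 ratio of these last 401 nucleotides was -1.32 and that of the 18S rRNA was -0.93, against 0.45 for the 25S rRNA before domain V.

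**Figure D1:**
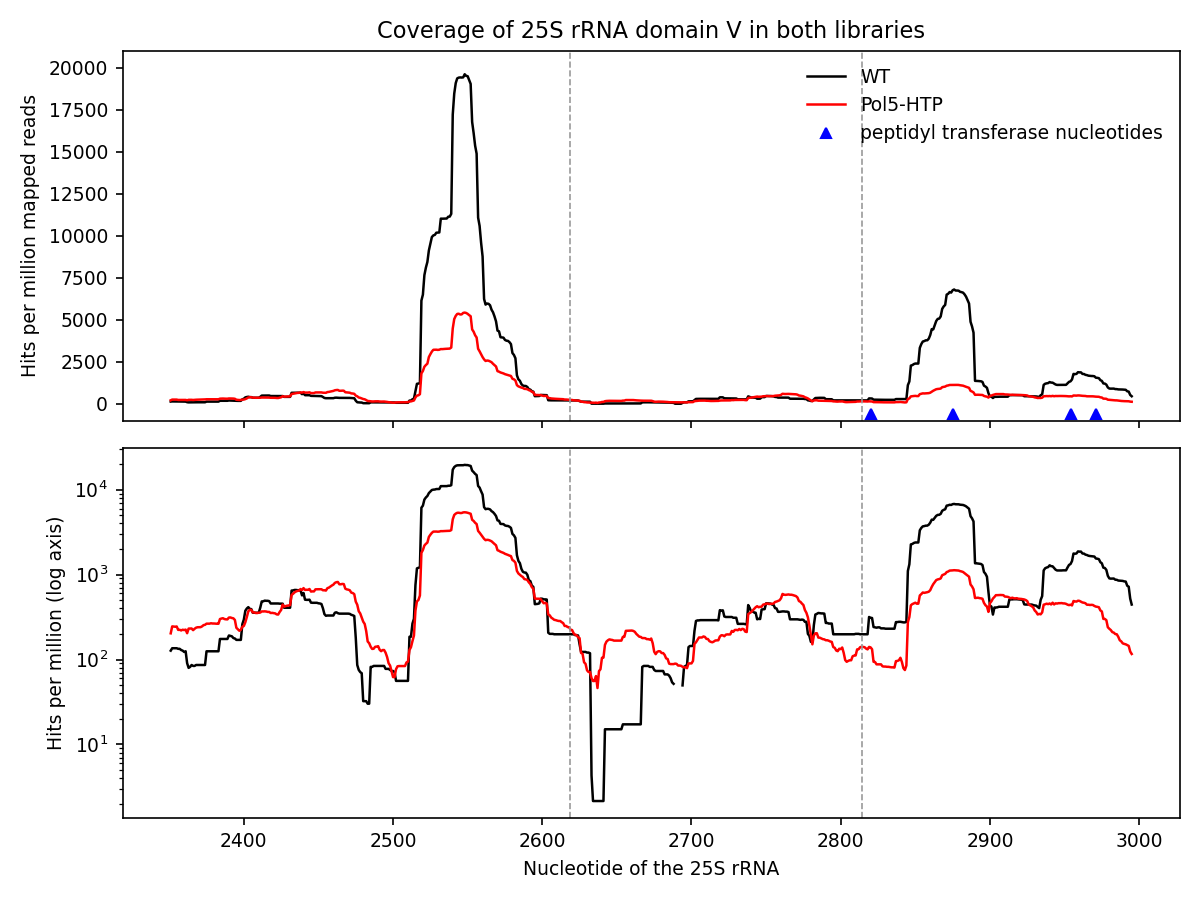
Coverage of domain V by nucleotide of the 25S rRNA (x axis) in hits per 1000000 mapped reads (y axis), linear in the upper panel and on a log axis in the lower, for WT (black) and Pol5-HTP (red), 1 library each. Dashed lines separate the 3 segments, triangles mark the 4 peptidyl transferase nucleotides, and positions with 0 reads are left blank on the log axis. Both libraries peak at nucleotides 2548 and 2876, and WT drops to 1 read around nucleotide 2637.

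The profiles of the libraries had a similar shape. Across the 645 nucleotides the Pearson correlation was 0.96 and the Spearman correlation 0.81. Both are descriptions, since neighbouring nucleotides share reads and both profiles come from the same RNA sequence. In the 2350 nucleotides before domain V the same measures were 0.21 and 0.50, in the 401 nucleotides after it 0.97 and 0.85, and in the 18S rRNA 0.82 and 0.81. Much of the correlation within domain V came from the 2 WT sites. Over the 538 nucleotides outside them, Pearson's r was 0.52 and Spearman's rho 0.69.

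Sites were called within domain V where coverage reached 10% of the highest value of the same library there, and stretches no more than 10 nt from each other were merged. WT had 2 sites and Pol5-HTP had 5. The 2 WT sites overlapped 2 of the Pol5-HTP sites, and in both of them the summit was at the same nucleotide in the libraries. The other 3 Pol5-HTP sites were low and overlapped no WT site. They passed because the Pol5-HTP threshold of 542 normalized hits was set by a lower maximum than that of WT, 1960.

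The highest site, around nucleotide 2548, lay in the first segment of the domain, before the P loop. Its summit was 19601 normalized hits in WT, or 9094 reads (95% Poisson interval 8908 to 9283), which was the highest value of this library over the whole 35S pre-rRNA. In Pol5-HTP the same nucleotide had 5422 normalized hits, or 9515 reads (9325 to 9708), and 26.4% of the maximum of that library. The numbers of reads at the summit were thus close, and the normalized value was lower for Pol5-HTP because each of its reads was worth fewer normalized hits. Here and below, intervals cover counting error only, since PCR copies are not independent molecules. Over nucleotides 2519 to 2582 the means were 10233 and 3171 normalized hits. This stretch held 60.2% of all WT hits on domain V and 49.4% of those of Pol5-HTP.

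The 2 largest rises of coverage at this site were at the same nucleotides in both libraries. In WT the largest rises between neighbouring nucleotides were 2738 reads at nucleotide 2540 and 2282 at nucleotide 2519. In Pol5-HTP these rises were 1986 and 2170 reads. Both rises followed a cytidine and began at an adenosine. The core at or above 50% of the summit extended from nucleotide 2526 to 2558 in WT and from 2524 to 2560 in Pol5-HTP. Falls on the 3′ side differed more. The fall after nucleotide 2560 was 1173 reads in WT and 236 in Pol5-HTP. At nucleotide 2566 coverage was 28.5% of the summit in WT and 45.5% in Pol5-HTP, and at nucleotide 2590 it was 5.07% and 15.9%. The Pol5-HTP site therefore extended further, to nucleotide 2594, and was 77 nt long against 64 nt. Within the WT limits of the site, the ratio of Pol5-HTP over WT ranged from 0.260 at nucleotide 2540 to 0.511 at nucleotide 2582.

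**Figure D2:**
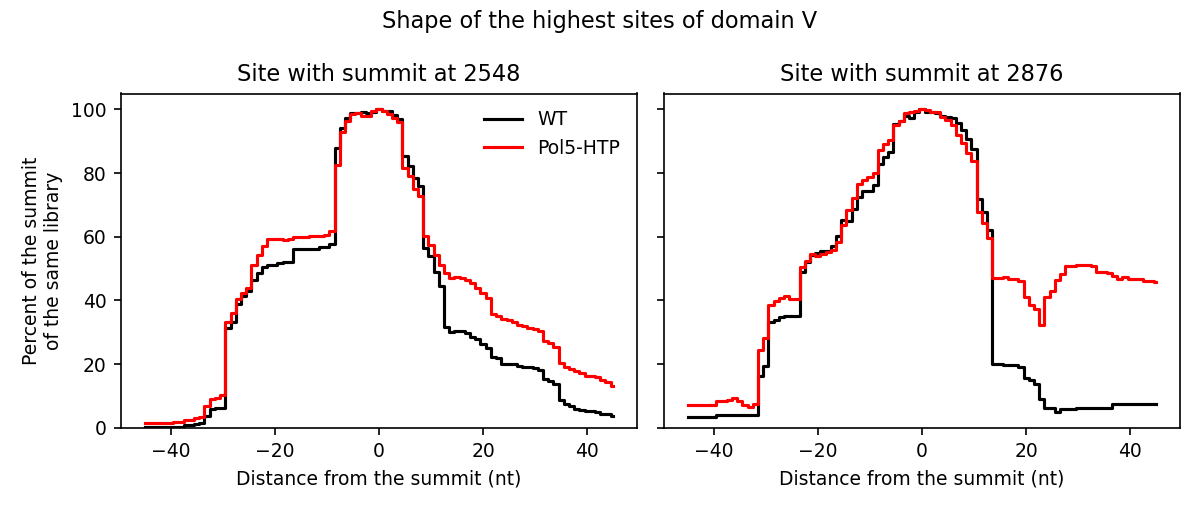
Coverage around the summits at nucleotides 2548 (left) and 2876 (right) as percent of the summit of the same library (y axis) against the distance from the summit in nt (x axis, 5′ to the left), for WT (black) and Pol5-HTP (red). Pol5-HTP is lower than WT at some distances just 3′ of the summits and higher further away, with 45.5% against 28.5% at 18 nt from the summit at 2548 and 46.6% against 19.6% at 18 nt from the summit at 2876.

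The second WT site included part of the peptidyl transferase ring. Its summit at nucleotide 2876 had 6796 normalized hits in WT, or 3153 reads (3044 to 3265), and 1126 in Pol5-HTP, or 1977 reads (1891 to 2066). The summit was next to the uridine at nucleotide 2875, which corresponds to U2506 of Escherichia coli and lines the pocket for the aminoacyl end of the tRNA. The site also contained the 5-methylcytidine at nucleotide 2870, which is set by the assembly factor Nop2, and pseudouridines at nucleotides 2865 and 2880. These 4 nucleotides had 5046 to 6751 normalized hits in WT and 877 to 1121 in Pol5-HTP. Over nucleotides 2847 to 2889 the means were 4966 and 833 normalized hits. The log2 ratio was -2.56, against -1.69 for the site at nucleotide 2548. It held 19.6% of the WT hits on domain V and 8.73% of the Pol5-HTP hits. Within it the ratio of the libraries varied little, from 0.157 to 0.196, so that the shape of the site was nearly the same in both. Its 3′ edge was different. After nucleotide 2889 WT fell by 1330 reads and was at 19.98% of its summit at nucleotide 2891, whereas Pol5-HTP was at 47.2%.

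Together the 2 WT sites covered 107 of the 645 nucleotides. They held 79.9% of the WT hits and 58.2% of the Pol5-HTP hits on domain V, and this comparison does not depend on the scaling. The remaining 538 nucleotides had means of 407 (WT) and 319 (Pol5-HTP) normalized hits and medians of 292 and 259. The log2 ratio of these means was -0.34.

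At the 3 sites called in Pol5-HTP and not in WT, mean coverage was higher in Pol5-HTP with both scalings. The sites were picked by their Pol5-HTP values, which favours this direction, so it is a description and not a test. Single nucleotides could go the other way as deposited. At nucleotide 2432, where the first of these sites starts, Pol5-HTP was at 576 and WT at 649. The stretch from nucleotide 2432 to 2474 had its summit at nucleotide 2463, with 819 normalized hits or 1437 reads (1364 to 1513), against 351 normalized hits or 163 reads (139 to 190.03) in WT. It took 7.12% of the Pol5-HTP hits on domain V and 1.75% of the WT hits. The log2 ratio of its means was 0.61. The other sites were 10 nt long each. They peaked at nucleotide 2761, where Pol5-HTP reached 592 normalized hits and WT 369, and at nucleotide 2907, where the values were 575 and 418. None of the 3 summits was above 3.98% of the maximum of Pol5-HTP over the 35S pre-rRNA. With the threshold at 20% of the maximum within domain V none of them was called.

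Domain V was divided into 3 segments at the 2′-O-methylguanosine of the P loop, nucleotide 2619, and at the 2′-O-methylguanosine of nucleotide 2815, shortly before the peptidyl transferase ring. From knowledge of the order of helices, the first segment holds the L1 stalk, the middle segment the P loop and the helices towards the central protuberance, and the last segment the 3′ strand of the peptidyl transferase ring and the A loop. The first segment, 268 nt long, had means of 2695 (WT) and 1060 (Pol5-HTP) normalized hits, with a log2 ratio of -1.34. It took 66.4% of the WT hits and 69.2% of the Pol5-HTP hits on domain V. The middle segment, with 196 nt, had means of 198 and 218, a log2 ratio of 0.14, and took 3.57% and 10.4%. In the last segment, with 181 nt, the means were 1802 and 463, the log2 ratio was -1.94 and the shares were 30.01% and 20.4%. With the class totals these log2 ratios were 0.59, 1.96 and -0.02. The order of the segments was the same with both scalings, which multiply all values of a library alike, but it changed with medians in place of means, where the log2 ratios were 0.14, -0.17 and -1.28.

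**Figure D3:**
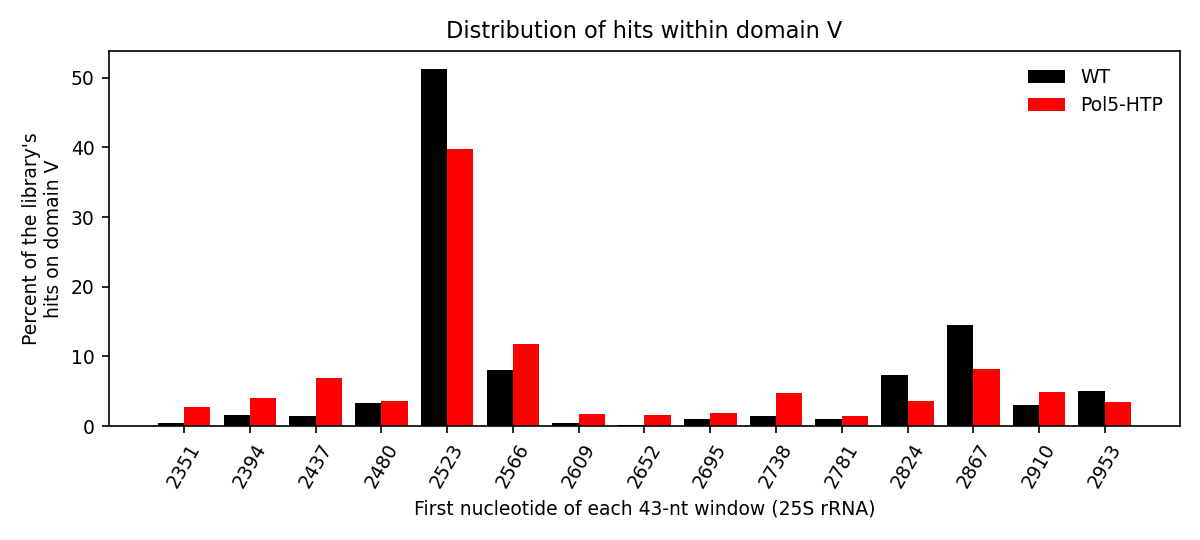
Percent of each library's hits on domain V (y axis) in 15 windows of 43 nt (x axis, first nucleotide of each window), for WT (black) and Pol5-HTP (red). The window from nucleotide 2523 held 51.3% of the WT hits and 39.7% of the Pol5-HTP hits, and the window from nucleotide 2867 held 14.4% and 8.18%.

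In 15 windows of 43 nt, for the coverage as deposited, 10 had a log2 ratio below 0 and 5 above. The lowest ratio was in the window from nucleotide 2824 to 2866, where WT averaged 1863 normalized hits and Pol5-HTP 348 and the log2 ratio was -2.39. The highest was in the window from nucleotide 2652 to 2694, with 44.5 and 149 normalized hits and a log2 ratio of 1.55. This was the only window above 1, whereas 5 were below -1. Windows outside domain V were not counted, so these numbers do not set the domain apart. As deposited, the 25S rRNA after it and the 18S rRNA also had negative log2 ratios, -1.32 and -0.93. In the window with the highest ratio WT had few reads, at most 84.1 normalized hits at any nucleotide.

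Per nucleotide, 206 of the 645 were at least 2 times lower in Pol5-HTP and 87 at least 2 times higher, with 10 normalized hits added, while 352 were within 2-fold. Over all nucleotides of the 35S pre-rRNA, 24.5% were at least 2 times lower and 36.0% at least 2 times higher. In domain V these shares were 31.9% and 13.5%, and in the 25S rRNA without domain V 27.0% and 28.6%. With the class totals 0 nucleotides of domain V were at least 2 times lower and 424 were at least 2 times higher. That scaling raises ratios 3.85 times everywhere, and the shares over the 35S pre-rRNA were not computed with it. The count of 424 is therefore not a result about domain V. The lower nucleotides formed 4 runs. These were nucleotides 2516 to 2580 at the highest site, the single nucleotide 2804, 80 nt from nucleotide 2819 to 2898 and 60 nt from nucleotide 2936 to the end of the domain. In the last run WT averaged 1247 normalized hits and Pol5-HTP 365. Neither library reached its site threshold there. At the limit of the domain, nucleotide 2995, WT had 444 normalized hits and Pol5-HTP 116, and at nucleotide 2996 they had 511 and 111, so the last run continued past the domain.

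**Figure D4:**
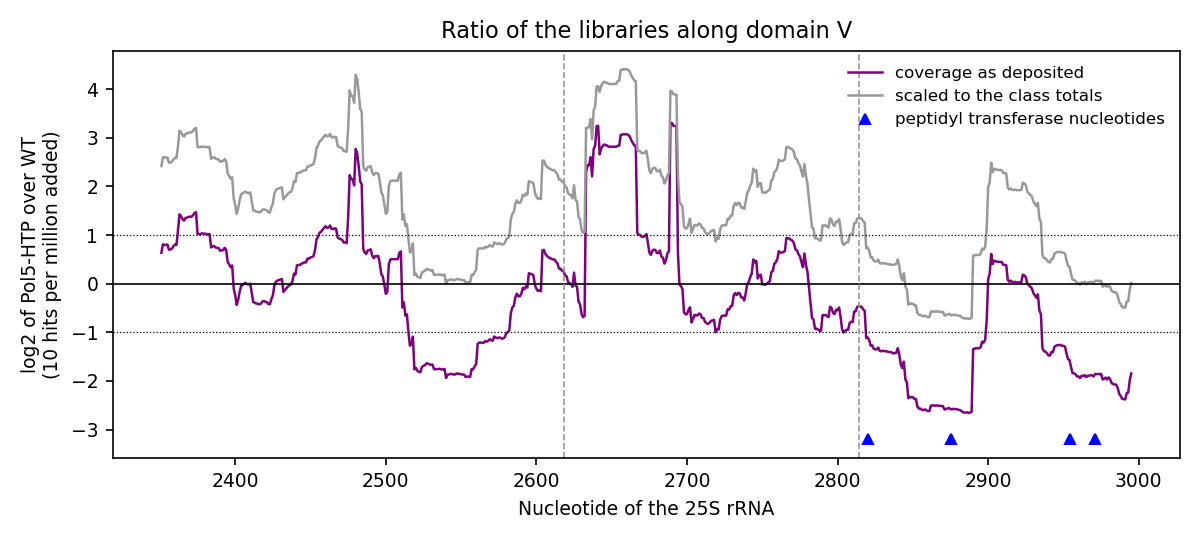
log2 ratio of Pol5-HTP over WT at each nucleotide of domain V, with 10 hits per 1000000 added (y axis), against the nucleotide of the 25S rRNA (x axis), for the coverage as deposited (purple) and scaled to the class totals (grey). Dotted lines mark 2-fold, dashed lines separate the segments and triangles mark the peptidyl transferase nucleotides. As deposited, 206 nucleotides lie at or below -1 and 87 at or above 1, and with the class totals 0 and 424 do. Over the 35S pre-rRNA the shares as deposited were 24.5% and 36.0%, and none were computed with the class totals, which raise ratios everywhere.

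The 4 nucleotides of the peptidyl transferase ring that were listed all lay in the lower runs. Lower nucleotides made up 31.9% of domain V and 24.5% of the 35S pre-rRNA. All 4 were in the last segment of 181 nt, most of which was taken up by lower runs of 80 and 60 nt. Their place in these runs is therefore not particular to the ring. The adenosine at nucleotide 2820, A2451 of Escherichia coli, which is at the heart of the active site, had 310 normalized hits, or 144 reads, in WT, and 139, or 244 reads, in Pol5-HTP. At the uridine of nucleotide 2875 the values were 6751 and 1121. The uridine at nucleotide 2954, U2585 of Escherichia coli, had 618 and 777 reads, and the adenosine at nucleotide 2971, A2602 of Escherichia coli, which contacts the tRNA acceptor ends, had 1545 and 420 normalized hits. Ratios of Pol5-HTP over WT were 0.448 (95% exact interval 0.363 to 0.554), 0.166 (0.157 to 0.176), 0.332 (0.299 to 0.370) and 0.272 (0.245 to 0.302). With the class totals, 3.85 times higher, the ratio at nucleotide 2875 would still be below 1 and the other 3 above 1. At nucleotide 2971 it would be close to 1, with a log2 ratio of 0.063 and an interval that includes 1.

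The loops that hold the tRNA ends had similar values in the libraries as deposited. Such values were not particular to them, since 352 of the 645 nucleotides of the domain were within 2-fold. In the A loop the 2′-O-methyluridine at nucleotide 2921 had 507 (WT) and 517 (Pol5-HTP) normalized hits, a ratio of 1.02 (0.883 to 1.18). Next to it, the 2′-O-methylguanosine at nucleotide 2922, set by the methyltransferase Spb1 late in 60S assembly, had 500.1 and 513, a ratio of 1.03 (0.887 to 1.19), and the pseudouridine at nucleotide 2923 had 446 and 509, a ratio of 1.14 (0.980 to 1.33). The P loop 2′-O-methylguanosine at nucleotide 2619 had 198 normalized hits or 92 reads in WT and 224 or 393 reads in Pol5-HTP, a ratio of 1.13 (0.898 to 1.43). All 4 intervals include 1 for the coverage as deposited. This depends on the scaling, and with the class totals all 4 ratios would be above 1. The A-loop nucleotides 2921 to 2923 are neighbours that share reads, so their intervals are not separate observations. The A loop lies between the site at nucleotide 2876 and the last lower run, and so separated 2 stretches in which Pol5-HTP was lower than WT as deposited.

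Of the 31 listed nucleotides, 14 were at least 2 times lower in Pol5-HTP, 2 at least 2 times higher and 15 within 2-fold, with a median log2 ratio of -0.65 against -0.20 over all nucleotides of the domain. Over all 645 nucleotides 31.9% were lower and 13.5% higher, and over the 35S pre-rRNA 24.5% and 36.0%. With the class totals 0 nucleotides of the domain, listed ones included, were at least 2 times lower. A matching share over the 35S pre-rRNA was not computed for that scaling. As deposited, among 15 2′-O-methylated nucleotides, 3 were lower, 1 was higher and 11 were within 2-fold. Of 9 pseudouridines, 5 were lower and 4 within 2-fold. These groups are too small to be read against the share over the domain. All 14 lower nucleotides lay at or after nucleotide 2820, in the last segment of 181 nt. The lower runs of 80 and 60 nt took up most of that segment, listed nucleotides or not. The count of 14 and the lower median are therefore not particular to the listed nucleotides. The first part of the domain up to nucleotide 2421 held 5 listed nucleotides, at which WT had 127 to 491 normalized hits and Pol5-HTP 203 to 364.

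**Figure D5:**
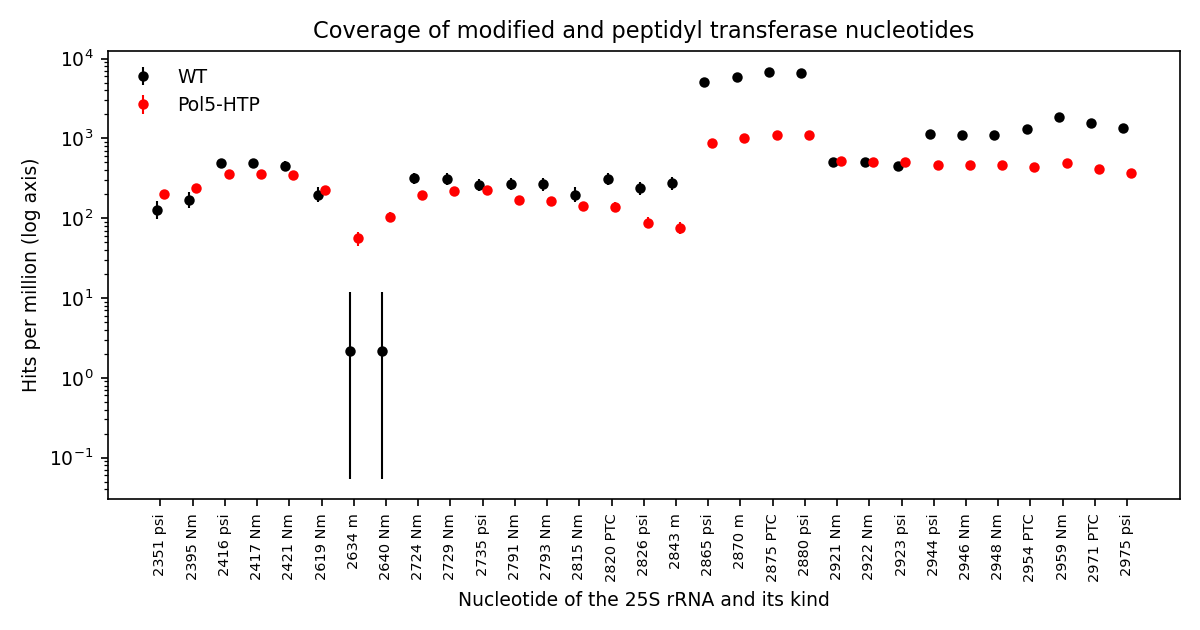
Coverage in hits per 1000000 mapped reads (y axis, log axis) at 31 listed nucleotides of domain V in 5′ to 3′ order (x axis), for WT (black) and Pol5-HTP (red), with 95% exact Poisson intervals of the reads. Kinds are peptidyl transferase ring (PTC), base methylation (m), 2′-O-methylation (Nm) and pseudouridine (psi). WT had 1 read at nucleotides 2634 and 2640, and Pol5-HTP had 98 and 184.

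The longest stretch with higher Pol5-HTP coverage began 1 nt before a base-methylated nucleotide. Of the 6 runs of nucleotides at least 2 times higher in Pol5-HTP, the longest extended from nucleotide 2633 to 2669, over 37 nt, in which WT averaged 18.3 normalized hits and Pol5-HTP 158. Nucleotide 2634 is a 3-methyluridine set by the methyltransferase Bmt5, with a methyl group on the face that pairs with other bases, and such groups are known to hinder reverse transcription. WT had 55 reads at nucleotide 2632, 2 at nucleotide 2633, 1 at nucleotide 2634 and 7 at nucleotide 2642. Pol5-HTP had 125 reads at nucleotide 2632, 98 at nucleotide 2634 and 261 at nucleotide 2642. At nucleotide 2634 the ratio was 25.9 with an exact interval of 4.54 to 1034, which shows how little the single WT read fixes its size. The 2′-O-methyladenosine at nucleotide 2640 lay in the same run, with 1 read in WT and 184 in Pol5-HTP.

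In Pol5-HTP this was also the lowest place of the domain. Its minimum over all 645 nucleotides, 46.2 normalized hits or 81 reads, was at nucleotide 2637, 3 nt from the 3-methyluridine. The other 3-methyluridine of the domain, at nucleotide 2843 and set by Bmt6, had 75.2 normalized hits or 132 reads in Pol5-HTP, the lowest value of the last segment in this library. In WT it had 274 normalized hits or 127 reads, while the lowest WT value of this segment, 198, was at nucleotides 2815 to 2818. The Pol5-HTP minimum at nucleotide 2843 was not a distinct dip. Its neighbours, nucleotides 2842 and 2844, had 139 and 149 reads, within the 95% Poisson interval at nucleotide 2843, 110 to 157. In WT these neighbours had 127 and 129 reads. The minima were looked up after the values were seen, and the part of the base methylation in the coverage was not tested. At 5 further nucleotides, 2689 to 2693, picked for this reason, WT had 0 reads. A floor of 3 reads, or 6.47 normalized hits in WT, was set for comparison and is not a confidence limit. Pol5-HTP had 148 to 157 reads there and a mean of 86.5 normalized hits, which is 13.4 times this floor. In Pol5-HTP every nucleotide of the domain had at least 81 reads.

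The remaining runs with higher Pol5-HTP values lay in the first segment, apart from the single nucleotide 2673. One, from nucleotide 2362 to 2383, averaged 102 normalized hits for WT and 248 for Pol5-HTP. Another covered nucleotides 2456 to 2467, within the Pol5-HTP stretch around nucleotide 2463, with 342 and 762. The third covered nucleotides 2475 to 2484, at the 3′ end of that stretch, with 64.0 and 303. WT coverage there was 14 to 84 reads, so counting error was larger than at the sites.

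The edges of the reads were examined because the RNase mixture used for trimming combines RNase A, which cuts after pyrimidines, with RNase T1, which cuts after guanosines. The coverage gives no read ends, but a net rise or fall between neighbouring nucleotides shows where more reads begin or end. The 5 largest falls in WT, after nucleotides 2556, 2889, 2560, 2552 and 2886, were of 1765, 1330, 1173, 1051 and 503 reads, and all 5 came directly after a pyrimidine. The 5 largest WT rises were at nucleotides 2540, 2519, 2541, 2521 and 2847, and 3 of them followed a pyrimidine. In Pol5-HTP the largest falls were after nucleotides 2552 and 2556, with 1381 and 1174 reads, and 3 of its 5 largest falls and 2 of its 5 largest rises followed a pyrimidine. By comparison, 46.1% of the 644 neighbouring pairs in the domain had a pyrimidine on the 5′ side, and 175 pairs had a guanosine there. In each library, 0 of the 5 largest rises and 0 of the 5 largest falls followed a guanosine. Lists of 5 are too short to be read against these shares, and cutting by the RNases was not tested. The 5 largest rises shared 4 nucleotides between the libraries and the 5 largest falls shared 2.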

How the data were processed

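CRAC data of 1 WT and 1 Pol5-HTP library were analysed. The authors collapsed identical sequences, trimmed reads with Flexbar and mapped them with Bowtie 2. The submitters' processing notes name Bowtie2 version 2.3.4.2. Coverage signal had been normalized by the authors to hits per 1000000 mapped reads at each nucleotide, and the deposited count tables give reads in 7 RNA classes, without normalization. The genome release and the placement of reads between rDNA copies are not given in the sources used here, so no chromosome coordinates are printed.

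The read totals used in the scaling were recovered from the step between coverage values, which gave whole numbers at 100% of the positions (tolerance 0.01 reads). The coverage listed 6862 rows, of which 4 repeated a boundary nucleotide and were dropped. Means, shares and log2 ratios, with 10 normalized hits added, were computed with Python 3.11.15, numpy 2.4.6, scipy 1.17.1 and pandas 2.3.3, and plots with matplotlib 3.10.9. The code was tested on simulated profiles with known sites and totals. With 1 library per group no test was made between groups. Named were all sites, the listed nucleotides, the windows with the highest and lowest ratio and the 5 largest rises and falls. The 31 listed nucleotides came from general knowledge of yeast 25S rRNA. The members and lists were chosen with earlier results of these data known. Alternatives changed the scaling, the value added, the limits, the mean or median, the site threshold, joining and smoothing.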

Additional observations from a re-analysis of the deposited data

How the results depend on the processing

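The scaling and the choice of mean or median both changed directions. For all of domain V the log2 ratio was 0.53 with the class totals, and so reversed; it was -1.54 with hits on the 35S pre-rRNA, -0.62 with the median ratio over 18S rRNA, -1.40 with 1 normalized hit added, -1.28 with 100 added, -1.40 without 40 nt at each edge, -0.0031 with the median over the nucleotides and -1.04 without the highest WT site, so the lower mean rested on the high stretches. With nothing added it was -1.40, an alternative chosen after seeing the data. The first segment had 0.59 with the class totals and 0.14 with the median, both reversed, -1.49 with hits on the 35S pre-rRNA, -0.56 with 18S rRNA, -1.35 with 1 and -1.27 with 100 added. The middle segment had -0.0075 with hits on the 35S pre-rRNA and -0.17 with the median, both reversed, 1.96 with the class totals, 0.89 with 18S rRNA and 0.10 with 100 added. The last segment had -2.09, -0.017 and -1.17 under these 3 scalings, -1.96 with 1 and -1.76 with 100 added and -1.28 with the median. Scaled to hits on domain V, chosen after seeing the data, the 3 segments had 0.058 (reversed), 1.47 and -0.55. The log2 ratio of the last segment was below 0 under every alternative run.

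Nucleotides at least 2 times higher numbered 424 with the class totals, 228 with 18S rRNA, 342 with hits on domain V and 38 with 100 added, and 48 at 4 times. Those at least 2 times lower numbered 0, 106 and 40 under these scalings and 56 at 4 times. Matching shares over the 35S pre-rRNA were not computed for these alternatives, so the counts do not set domain V apart. Domain V took 22.2% of the WT hits on 25S rRNA and 8.89% of the Pol5-HTP hits without 40 nt at each edge, 18.7% and 14.0% with values clipped at 10% of the maximum, and 14.9% and 5.06% of the hits on the 35S pre-rRNA. It was thus smaller in Pol5-HTP under all 3. Pol5-HTP sites numbered 2 at a threshold of 20% of the maximum, 1 at 30% and 1 at 10% of the 35S maximum, and in the last 2 cases 1 overlapped a WT site. In 21 of 70 alternatives the value kept its direction and stayed within its counting interval or, for counts, within 1.5 times. That interval counts the hits at each nucleotide separately, although neighbouring nucleotides share reads, so it is too narrow. Small changes such as -1.39 to -1.40 thus fell outside it, and the tally does not measure how firm the results are. No paired analysis was possible because each group had 1 library. WT depth limits ratios where it had few reads.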

Other observations

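Among the 20 largest rises in coverage within domain V, 13 followed a pyrimidine in WT and 13 in Pol5-HTP. In each library 1 of these rises followed a guanosine, and 15 were at the same nucleotide in both libraries. Of the 20 largest falls, 12 in WT and 11 in Pol5-HTP came directly after a pyrimidine, 4 and 5 after a guanosine, and 16 were shared. Over all 644 neighbouring pairs, 297 had a pyrimidine and 175 a guanosine on the 5′ side. A cytidine followed by an adenosine made up 6.06% of these pairs. It was the pair at 4 of the 20 largest WT rises and 7 of the 20 largest Pol5-HTP rises, and at 4 of the 20 largest falls in each library. The 20 largest steps were counted after the 5 largest had been seen, and neighbouring steps of a site can come from the same reads.

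The GC content was 47.0% over domain V, 48.4% in the WT site around nucleotide 2548 and 44.2% in that around nucleotide 2876.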
